A study of Ovis aries with 12 samples.

Results

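LMCD1 and 8 genes of the calcineurin-NFAT pathway were followed in back muscle (longissimus dorsi) of Tan sheep on 4 diets. The 9 genes were taken from the deposited table of 21257 genes by symbol: LMCD1, RCAN1, the calcineurin subunits PPP3CA, PPP3CB and PPP3R1, and the transcription factors NFATC1, NFATC2, NFATC3 and NFATC4. LMCD1 was picked for its large difference between the diet with 1% succinate and the control diet in these same libraries, so that difference and every other one that uses those control or 1% libraries is given for LMCD1 as a description, with no test. The other 8 genes were chosen by name, as parts of the pathway, though with earlier results of these data known. The sheep were 5 months old, and 36 of them were divided into groups of 9, which received a basal diet (control) or that diet with 0.5% (SUC1), 1% (SUC2) or 2% (SUC3) succinate for 60 days after a pretrial period of 10 days. Every animal received the same basal feed, no animal carried a genetic change by the labels, and 3 libraries per diet were sequenced. The labels do not say whether a library came from 1 animal or from pooled tissue, and p-values therefore measure only how these libraries spread, which may be partly technical.

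Calcineurin is a phosphatase that is switched on by calcium and calmodulin. It removes phosphate from the NFAT factors, which then enter the nucleus and act on their target genes, and in rodent muscle this route is known for maintaining genes of slow, oxidative fibres. RCAN1 encodes a protein that binds and inhibits calcineurin, and in mouse and human cells one of its promoters is itself switched on by NFAT, so its transcript is widely used as a readout of the pathway. LMCD1 encodes a cofactor with LIM domains, which in mice has been linked to calcineurin signalling in the heart and to repression of GATA6.

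Libraries held 15742428 to 18564057 counts. Levels are given as CPM, which are counts scaled to library size with TMM factors. FPKM, which is also divided by gene length, is used where genes are compared with each other. All 9 genes passed the filter on low counts, which kept 13319 genes. Skeletal fibre markers (ACTA1, CKM, MYLPF, TTN, DES and TNNT3) summed to 93729 CPM or more in every library, so genes of skeletal muscle were high throughout. These general markers do not identify which muscle was sampled. Control replicate 1 differed from both other control libraries by at least 4-fold in the same direction for 69 of 12109 genes with a mean of at least 1 CPM, against 28 to 90 such genes for the other 11 libraries within their own diets. That library matters for RCAN1 and LMCD1, and their results are therefore given with and without it.

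LMCD1 lay on chromosome 19 from 17867007 to 17923710 in the deposited table. Its level was 241, 32.9 and 49.2 CPM in control replicates 1, 2 and 3. In SUC1 it was 210.3, 179.6 and 478 CPM, in SUC2 1012, 922 and 1403 CPM, and in SUC3 167, 369 and 354 CPM. All 3 SUC2 libraries lay above all 9 others, while the control, SUC1 and SUC3 libraries overlapped, because control replicate 1 reached the range of the SUC1 and SUC3 libraries. Ordered by mean, control had 108 ± 115 CPM, SUC1 289 ± 164, SUC3 297 ± 112 and SUC2 1112 ± 255 (SD, n = 3 each), so the order of the diets was not the order of the doses. Neighbours in this order overlapped except SUC3 and SUC2.

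As a description, the log2 fold change of LMCD1 against control was 1.43 ± 0.62 (SE) in SUC1, 3.37 ± 0.67 in SUC2 and 1.47 ± 0.62 in SUC3. The SUC2 value ranked 12 of 13319 genes tested by log2 fold change, and 8 of the 12109 genes with a mean of at least 1 CPM. Without control replicate 1 these differences were 2.82, 4.76 and 2.85, and without control replicate 2 they were 1.00, 2.94 and 1.03. By length-scaled level, LMCD1 ranked 54 to 96 among the 21257 genes in the SUC2 libraries. In control it ranked 379, 2051 and 1379 in replicates 1, 2 and 3. SUC3 and SUC1 hold none of the libraries that LMCD1 was picked on, and LMCD1 differed between them by 0.04 ± 0.61 on the log2 scale (95% interval -1.28 to 1.35; edgeR adjusted p = 0.996), with a spread estimated from all 12 libraries. Fitted on the 6 SUC1 and SUC3 libraries alone, an alternative chosen after seeing the data, the difference was 0.04 ± 0.40 (95% interval -0.86 to 0.95; edgeR adjusted p = 0.990). Both intervals are wide, so neither fit shows that the levels were alike.

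**Figure D1:**
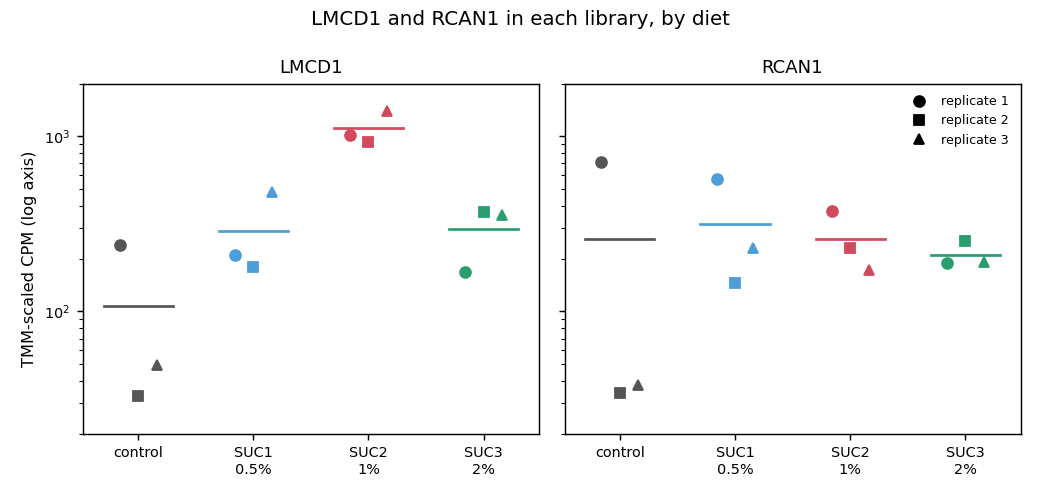
TMM-scaled CPM of LMCD1 (left) and RCAN1 (right) in each of the 12 libraries, on a log axis, by diet; symbols stand for replicates 1, 2 and 3 and bars for the mean of 3 libraries. All SUC2 libraries of LMCD1 lie above the rest, and control replicate 1 lies far above the other control libraries in both genes.

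RCAN1, the calcineurin inhibitor, lay on chromosome 1 from 121508790 to 121632745, and its control libraries differed from each other more than any diet differed from control. Its level was 709, 34.1 and 37.9 CPM in control replicates 1, 2 and 3. It was 572, 146 and 231 CPM in SUC1, 375, 229.6 and 173 CPM in SUC2, and 188, 251 and 191 CPM in SUC3. Control replicate 1 held the highest value of all 12 libraries, and control replicates 2 and 3 held the lowest values, below every succinate library. Within control the range was 20.8-fold, and only 27 of 12109 genes had a range in control that was as wide or wider. The range within a diet was 3.91-fold in SUC1, 2.17-fold in SUC2 and 1.33-fold in SUC3.

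With all 12 libraries RCAN1 did not pass in any diet. Its log2 fold change against control was 0.28 ± 0.89 (SE) for SUC1 (edgeR adjusted p = 0.982), -0.01 ± 0.89 for SUC2 (adjusted p = 0.997) and -0.31 ± 0.89 for SUC3 (adjusted p = 0.916). The 95% interval in SUC2 ran from -1.92 to 1.90, so neither a 3-fold increase nor a 3-fold decrease lay outside it. Control averaged 260.5 ± 389 CPM, SUC1 316 ± 225, SUC2 259 ± 105 and SUC3 210.2 ± 35.4 (SD, n = 3), and every neighbouring pair of diets in the order of means overlapped. Without control replicate 1 the log2 fold change was 3.14 ± 0.53 in SUC1, 2.85 ± 0.53 in SUC2 and 2.55 ± 0.52 in SUC3, and RCAN1 passed in SUC2 (edgeR adjusted p = 0.0326) but not in SUC1 (adjusted p = 0.0856) or SUC3 (adjusted p = 0.107). In that fit 0% of all genes tested passed in SUC1, 1.18% in SUC2, of which 0.669% higher, and 0.0808% in SUC3, of which 0.0441% higher. Leaving out control replicate 1, which held the highest RCAN1 value, keeps only the lowest libraries, control replicates 2 and 3, as control. A higher value in every diet was thereby fixed in advance. The p-values of that fit are a description and no test of RCAN1. Without control replicate 2 the values for SUC1, SUC2 and SUC3 were -0.24, -0.53 and -0.83, and without control replicate 3 they were -0.23, -0.52 and -0.82. In all 3 diets the sign of the RCAN1 difference therefore depended on which control libraries were used.

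All 12 genes of a list for the slow, oxidative fibre programme were highest in the same control library among the 3 controls, from 1.03-fold (MB, myoglobin) to 5.57-fold (MYL2, the slow myosin light chain) above the higher of the other 2. MYH7, which encodes the myosin of slow fibres, reached 7131 CPM in control replicate 1 against 1909.8 and 2182 CPM in replicates 2 and 3. MYH2, the myosin of IIa fibres, was at 22698 CPM there against 7834 and 9774 CPM, while MB was at 6262 CPM against 3618 and 6068 CPM. The 6 general skeletal fibre markers also summed to more there, 146438 CPM against 97315 and 114025 CPM, which was the highest sum of the 12 libraries. The part of these genes in the RCAN1 values was not tested. In bulk tissue, fewer cells of a type and less RNA per cell cannot be told apart. RCAN1 counts are the sum over its transcripts, so its promoters cannot be separated in this table.

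**Figure D2:**
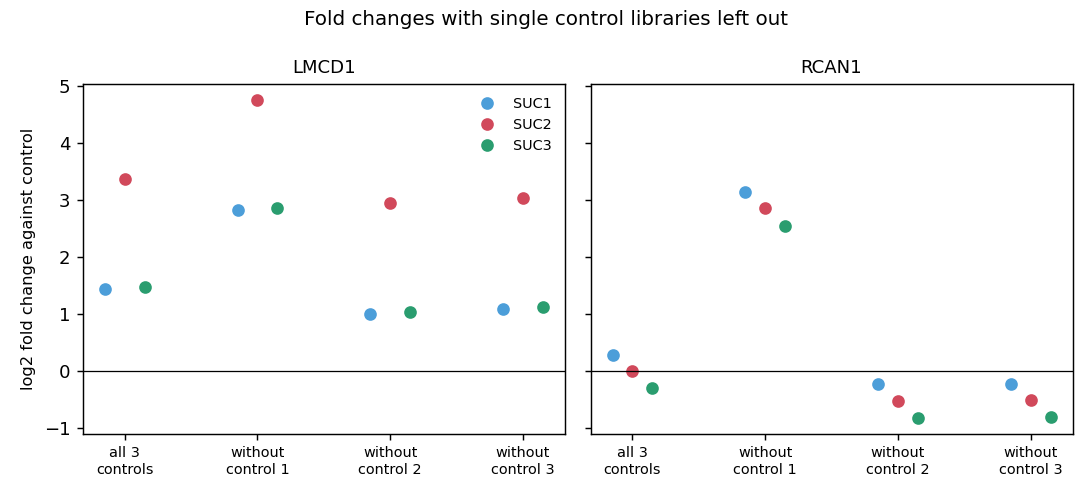
Log2 fold change of LMCD1 (left) and RCAN1 (right) in each succinate diet against control, with all 3 control libraries and with each control library left out in turn. LMCD1 stays above 0 in all 4 settings, while RCAN1 lies between -0.83 and 0.28 except without control replicate 1, where it lies between 2.55 and 3.14. LMCD1 was picked for its SUC2 difference against these control libraries, so its values are a description.

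The genes for calcineurin itself varied less within diets than the median gene. PPP3CA, the alpha catalytic subunit (chromosome 6, 23762180 to 24085851), PPP3CB, the beta catalytic subunit (chromosome 25, 28646708 to 28694250), and PPP3R1, the calcium-binding regulatory subunit (chromosome 3, 40085449 to 40150841), varied by 2.06-fold, 1.57-fold and 2.41-fold over all 12 libraries. Over the 12 libraries, 42.1% of 12109 genes had a smaller log2 range than PPP3CA, 12.1% a smaller one than PPP3CB and 57.3% a smaller one than PPP3R1, so PPP3R1 lay above the median in this respect. LMCD1 varied 42.7-fold and RCAN1 20.8-fold over the same libraries. Averaged within diets, the SD of log2 CPM was 0.21 for PPP3CA, 0.17 for PPP3CB and 0.26 for PPP3R1, against a median of 0.32 over 12109 genes, 0.92 for LMCD1 and 1.37 for RCAN1. In SUC2 alone, 57.7% of these genes had a smaller log2 range than PPP3CA, 22.0% than PPP3CB and 68.7% than PPP3R1.

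PPP3CA was at 233, 214 and 208 CPM in control, 271, 261 and 238 in SUC1, 209, 151 and 132 in SUC2, and 226, 176 and 223 in SUC3. Every SUC1 library lay above every control library, and SUC2 replicates 2 and 3 were the lowest of the 12. Its log2 fold change against control was 0.23 ± 0.19 for SUC1 (edgeR adjusted p = 0.862), -0.42 ± 0.19 for SUC2 (adjusted p = 0.266) and -0.07 ± 0.19 for SUC3 (adjusted p = 0.910), and none passed. SUC2 and SUC1 did not overlap, and the difference between them was -0.65 ± 0.19 (edgeR adjusted p = 0.429).

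PPP3R1 showed the same order of diets. It was at 208, 240.1 and 213 CPM in control, 290.3, 216 and 215 in SUC1, 211, 175 and 120.4 in SUC2, and 158, 171 and 204 in SUC3. All SUC3 libraries lay below all control libraries by a narrow margin, with a highest SUC3 value of 204 CPM and a lowest control value of 208 CPM. The log2 fold change in SUC3 was -0.31 ± 0.21 (edgeR adjusted p = 0.581) and in SUC2 -0.38 ± 0.21 (adjusted p = 0.378).

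PPP3CB ranged from 124 CPM in SUC3 replicate 1 to 195 CPM in control replicate 1. Its log2 fold changes against control lay between -0.24 and 0.11 over the 3 diets, with standard errors of 0.17, and the groups overlapped in each. In the table its interval shares 7965 positions with that of MSS51, a gene on the same strand with 53.6 to 265 CPM, so reads of the 2 genes may not be fully separated and the PPP3CB level is uncertain. All 3 subunits followed each other across libraries, with Pearson r of 0.80 for PPP3CA and PPP3R1 and 0.71 for PPP3CA and PPP3CB over 12 libraries, and 0.67 and 0.49 for deviations from diet means. These are descriptions, since the libraries share diets and scaling.

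By FPKM, PPP3R1 averaged 66.9 ± 13.9, PPP3CA 51.2 ± 9.25 and PPP3CB 37.9 ± 3.96 (SD, n = 12). PPP3CA made up 46.8% ± 2.14 of the summed FPKM of the 3 catalytic subunit genes in control, PPP3CB 35.4% ± 1.55 and PPP3CC, the gamma subunit, 17.7% ± 0.85. In SUC2 these shares were 44.4% ± 3.08, 38.6% ± 2.23 and 17.0% ± 0.87 (SD, n = 3), so the alpha subunit gene stood first in both diets.

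Of the NFAT factors, which carry the calcineurin signal to target genes, NFATC3 was the most abundant by FPKM in every diet. For control, SUC1, SUC2 and SUC3, its share of the summed FPKM of the 4 NFAT genes was 80.2% ± 9.45, 71.7% ± 2.49, 82.3% ± 3.22 and 68.9% ± 8.54 (SD, n = 3). NFATC1 held 14.4% ± 6.63, 22.4% ± 4.07, 11.97% ± 2.96 and 22.4% ± 6.65 in the same order. NFATC2 and NFATC4 averaged between 2.35% and 5.70% in each diet, and their mean FPKM over 12 libraries was 0.71 ± 0.22 and 0.94 ± 0.42 against 20.8 ± 7.13 for NFATC3.

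NFATC3 (chromosome 14, 35080221 to 35173354) was at 107, 205 and 204 CPM in control, 153, 105 and 76.7 in SUC1, 158, 115 and 121 in SUC2, and 95.2, 129.5 and 117 in SUC3. Control replicates 2 and 3 held the 2 highest values, and control replicate 1, where RCAN1 peaked, lay within the succinate libraries. The log2 fold change was -0.63 ± 0.28 for SUC1 (edgeR adjusted p = 0.643), -0.39 ± 0.28 for SUC2 (adjusted p = 0.519) and -0.59 ± 0.28 for SUC3 (adjusted p = 0.420). Without control replicate 1 these were -0.87, -0.64 and -0.84, with the smallest adjusted p at 0.241, and no value passed. Its interval shares 141 positions with that of ESRP2 on the opposite strand, a gene with at most 1.31 CPM.

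NFATC1 (chromosome 23, 943955 to 1035115), the member linked in mouse muscle to slow fibre genes, was lowest in SUC2. It was at 43.9, 29.5 and 36.2 CPM in control, 76.8, 34.6 and 29.6 in SUC1, 23.9, 29.0 and 20.04 in SUC2, and 58.4, 56.7 and 30.2 in SUC3. Every SUC2 library lay below every library of the other 3 diets, though the gap to control was small, with 29.0 CPM against 29.5 CPM. The log2 fold change in SUC2 was -0.58 ± 0.34 against control (edgeR adjusted p = 0.412) and -0.95 ± 0.35 against SUC1 (adjusted p = 0.480). SUC3 lay above SUC2 by 0.99 ± 0.35 (adjusted p = 0.313), and none of these passed.

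NFATC4 (chromosome 7, 20615525 to 20627441) was highest in SUC3, at a low level of 31 to 124 counts per library. It was at 3.17, 1.69 and 3.04 CPM in control, 2.04, 2.58 and 3.30 in SUC1, 3.19, 2.13 and 3.21 in SUC2, and 6.62, 5.04 and 3.95 in SUC3. All 3 SUC3 libraries lay above all 9 others. The log2 fold change in SUC3 was 0.99 ± 0.33 against control (95% interval 0.27 to 1.70; edgeR adjusted p = 0.260), 0.98 ± 0.33 against SUC1 (adjusted p = 0.500) and 0.87 ± 0.33 against SUC2 (adjusted p = 0.338), and none passed.

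NFATC2 (chromosome 13, 79241723 to 79397732) had 30 to 131 counts per library. It was at 9.03, 5.83 and 5.56 CPM in control, 5.35, 5.66 and 2.07 in SUC1, 3.97, 5.496 and 4.32 in SUC2, and 6.20, 7.34 and 4.19 in SUC3. All SUC2 libraries lay below all control libraries, by 5.496 against 5.56 CPM at the closest, and the log2 fold change was -0.56 ± 0.36 (edgeR adjusted p = 0.448).

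**Figure D3:**
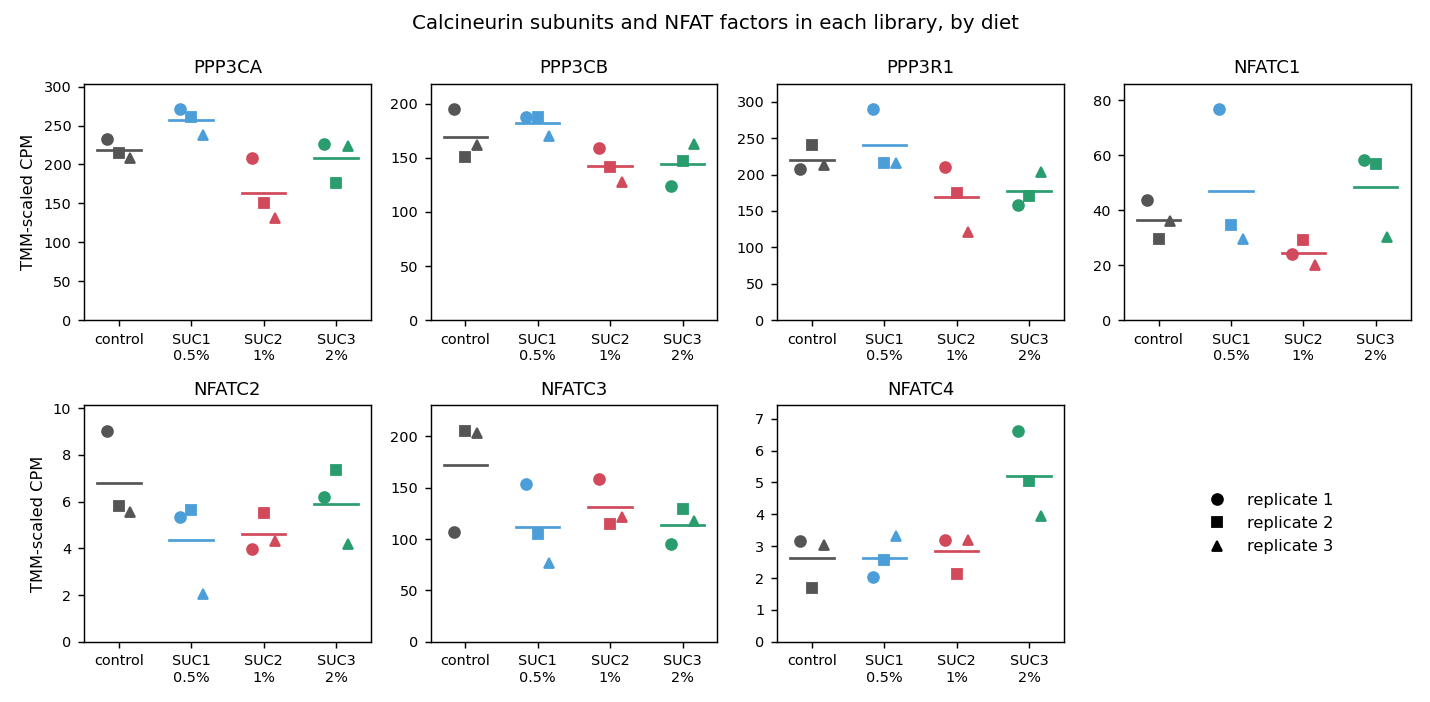
TMM-scaled CPM of the 3 calcineurin subunit genes and the 4 NFAT genes in each of the 12 libraries, by diet, with linear axes from 0; symbols stand for replicates and bars for the mean of 3 libraries. NFATC1 is lowest in SUC2 and NFATC4 highest in SUC3, while most other groups overlap.

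Counted over the 8 genes other than LMCD1, no gene passed in any of the 6 comparisons among the diets by edgeR, nor by DESeq2. In SUC1 against control 0 of 8 passed, as did 0% of all genes tested, and in SUC2 0 of 8 passed against 1.43% of all genes. In SUC3 the count was 0 of 8 against 0.00751% of all genes. At an unadjusted p under 0.05 there was 1 gene in each, NFATC3 in SUC1, PPP3CA in SUC2 and NFATC4 in SUC3, where 7.61%, 17.9% and 12.4% of all genes fell. Libraries did not overlap for 1 of 8 genes in SUC1 (PPP3CA), 2 in SUC2 (NFATC1 and NFATC2) and 2 in SUC3 (PPP3R1 and NFATC4), against 14.2%, 22.2% and 18% of all genes tested. The shares among the 8 genes were close to this background.

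The median log2 fold change of the 8 genes was 0.12 in SUC1, -0.39 in SUC2 and -0.21 in SUC3, where the median of all genes was -0.01, -0.00 and -0.01. In SUC2, 7 of the 8 were below control and 1, NFATC4, above it, where 49.8% of all genes had a positive value. Of the 7, RCAN1 was at -0.01 ± 0.89, and the 3 subunits followed each other across libraries. The 3 comparisons share their control libraries, so they are not independent of each other. Between succinate diets the 8 genes were also compared. In SUC2 against SUC1, 4 of 8 genes had no overlap, all lower in SUC2 (the 3 subunits and NFATC1), where 6.43% of all genes were lower and 13.7% had no overlap in either direction. Of these 4, PPP3CA, PPP3R1 and NFATC1 had an unadjusted p under 0.05, as had 8.57% of all genes, and none passed after adjustment, as did 0% of all genes. In SUC3 against SUC1, 4 of 8 had no overlap (NFATC4 higher and the 3 subunits lower) against 12% of all genes, 1 (NFATC4) had an unadjusted p under 0.05 against 7.31%, and 0 passed against 0%. In SUC3 against SUC2, 2 of 8 had no overlap (NFATC1 and NFATC4, both higher) against 14.5% of all genes, the same 2 had an unadjusted p under 0.05 against 11.5%, and 0 passed against 0.015%. DESeq2 called none of the 8 genes in any of the 6 comparisons, where it called 0.48%, 6.12% and 1.74% of the genes it tested in SUC1, SUC2 and SUC3 against control, 0.582% in SUC2 against SUC1, 0.583% in SUC3 against SUC1 and 1.7% in SUC3 against SUC2.

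**Figure D4:**
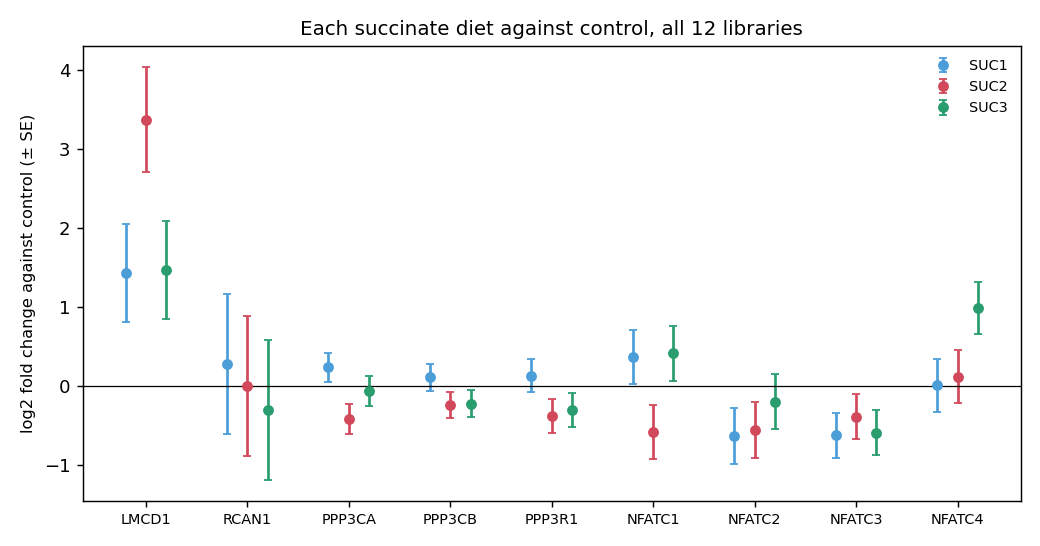
Log2 fold change of each of the 9 genes in each succinate diet against control, fitted on all 12 libraries, with bars of 1 standard error. LMCD1 in SUC2 stands at 3.37, RCAN1 has the widest errors, and the other 7 genes lie between -0.64 and 0.99.

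Around these genes, 79 further genes of the pathway and its surroundings were followed in 8 lists, and 77 of them were tested. In SUC2 against control 2 of 77 passed by edgeR, 1 higher and 1 lower, against 0.773% and 0.661% of all genes, and none passed in SUC1 or SUC3. Without adjustment, a p under 0.05 was found for 10 of the 77 genes in SUC1, 19 in SUC2 and 11 in SUC3, where 7.61%, 17.9% and 12.4% of all genes had one. The median log2 fold change over the 77 genes was 0.08, 0.06 and 0.15.

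The gene that fell was ORAI1, the pore of the store-operated calcium channel through which calcium that switches on calcineurin can enter the cell (chromosome 17, 53637802 to 53652895). It was at 15.7, 20.1 and 14.9 CPM in control and at 5.96, 6.80 and 4.81 CPM in SUC2. SUC1 held 12.4, 10.4 and 7.71 CPM and SUC3 9.46, 6.67 and 11.5 CPM, so every succinate library lay below every control library. The log2 fold change was -1.53 ± 0.25 in SUC2 (edgeR adjusted p = 0.0213), -0.73 ± 0.25 in SUC1 (adjusted p = 0.470) and -0.88 ± 0.25 in SUC3 (adjusted p = 0.205). Over 16 alternatives the SUC2 value lay between -1.65 and -1.39, and the call was lost in 3 of them, which left out control replicate 2 (adjusted p = 0.0925), control replicate 3 (adjusted p = 0.0889) and SUC2 replicate 3 (adjusted p = 0.101). Of the other 12 genes of the calcium entry list, which holds the sensors STIM1 and STIM2 and the release channel RYR1, none passed. HOMER1, a scaffold of calcium channels, was at -0.98 ± 0.35 in SUC2 (edgeR adjusted p = 0.167).

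The gene that rose was PRICKLE3, which shares the PET and LIM domains of LMCD1 and is otherwise known as a planar cell polarity gene (X chromosome, 55962244 to 55971255). It was at 4.00, 4.52 and 4.99 CPM in control, 5.47, 7.25 and 7.09 in SUC1, 8.63, 9.04 and 13.1 in SUC2, and 7.80, 11.8 and 7.004 in SUC3. The control libraries were the 3 lowest of the 12. The log2 fold change in SUC2 was 1.19 ± 0.25 (edgeR adjusted p = 0.0422). The call was lost in 9 of 16 alternatives, with a value between 0.97 and 1.30 and an adjusted p up to 0.162. Among the other 6 relatives with LIM domains, PRICKLE1 was at 1.20 ± 0.35 in SUC3 (adjusted p = 0.213) and FHL3 at -0.40 ± 0.25 (adjusted p = 0.542), and none passed. CSRP3, the muscle LIM protein, named after its values were seen, was at 0.79 ± 0.83 in SUC2 with all libraries (edgeR adjusted p = 0.678). Without control replicate 1 it was at 3.05 (edgeR adjusted p = 0.0405). Its control libraries ran from 58.8 to 799 CPM, so the value rested on which control libraries were used. The p-value without control replicate 1 is a description and no test of CSRP3.

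Other regulators of calcineurin did not pass with all libraries. CALM2, 1 of 3 genes for calmodulin, the calcium sensor of calcineurin, was at 244, 190.5 and 232 CPM in control and 350.2, 378 and 388 CPM in SUC2 (log2 fold change 0.74 ± 0.21, edgeR adjusted p = 0.0844). In SUC3 it was at 137, 185 and 238 CPM, so SUC2 and SUC3 did not overlap. PPP3CC was at -0.43 ± 0.16 in SUC2 (adjusted p = 0.178), below all control libraries. Of 11 inhibitors and anchors none passed in any diet. RCAN2, a relative of RCAN1, was at 0.66 ± 0.28 in SUC1 (adjusted p = 0.588), and MYOZ3, a calsarcin that binds calcineurin at the Z-disc, at -0.70 ± 0.31 in SUC2 (adjusted p = 0.266).

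Among 9 genes for kinases that return NFAT to the cytoplasm, with NFAT5, none passed. DYRK1A, which phosphorylates NFAT in the nucleus, was at 80.4, 78.6 and 79.8 CPM in control and 127, 101 and 178 CPM in SUC2, with no overlap (log2 fold change 0.77 ± 0.22, edgeR adjusted p = 0.0889). MAPK14, the kinase p38 alpha, was at -0.57 ± 0.17 in SUC2 (adjusted p = 0.102) and -0.59 ± 0.17 in SUC1 (adjusted p = 0.383). DESeq2 called DYRK1A (adjusted p = 0.0247), MAPK14 (adjusted p = 0.0311) and CALM2 (adjusted p = 0.0165) in SUC2. Of 9 transcription partners tested none passed. HDAC9, a repressor of MEF2 factors, was at 20.3, 10.5 and 13.8 CPM in control and 4.65, 1.89 and 3.885 CPM in SUC2 (log2 fold change -2.09 ± 0.53, adjusted p = 0.0697). GATA6, the factor that LMCD1 restrains in mice, had 4 to 50 counts per library and was at 2.30 ± 0.62 in SUC3 (adjusted p = 0.173).

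In the slow fibre list, all 12 genes had a positive fold change in SUC3 with a median of 0.54, 9 of 12 did in SUC1 with a median of 0.27, and 4 of 12 did in SUC2 with a median of -0.14, and none passed. The share of all genes with a positive value was 49% in SUC3, 48.3% in SUC1 and 49.8% in SUC2. All 12 genes of this list were highest in control replicate 1 among the controls, which lowers their values against control in every diet. Their signs are therefore not independent of each other, and they were not counted again without that library. MB was at 0.74 ± 0.26 in SUC1 (edgeR adjusted p = 0.485), and PPARGC1A, a coactivator of oxidative genes, at 2.56 ± 0.87 in SUC3 (adjusted p = 0.261), with 383 CPM in SUC3 replicate 2 against 123 and 27.2 CPM in the other SUC3 libraries. Among 12 immediate early genes, 10, 11 and 8 were positive in SUC1, SUC2 and SUC3 and none passed. NR4A3, a nuclear receptor that is quickly induced in active muscle, was at 0.55, 0.54 and 0.75 CPM in control, 7.15, 3.94 and 17.5 in SUC1, 3.87, 10.2 and 59.9 in SUC2, and 104, 366 and 1.38 in SUC3. Every succinate library lay above every control library, but values within SUC3 ran from 1.38 to 366 CPM, and the log2 fold change of 7.98 ± 1.69 did not pass (adjusted p = 0.139). ATF3, a stress-induced factor, was at 3.05 ± 0.77 in SUC1 (adjusted p = 0.349).

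Among 11269 other named genes with a mean of at least 1 CPM, those whose log2 CPM followed LMCD1 most closely over the 12 libraries were BAG2, HSPB1, SRSF3, PPP2CA, RPS6KA3 and ODC1. BAG2 encodes a co-chaperone of HSP70 and HSPB1 a small heat shock protein of muscle. SRSF3 encodes a splicing factor, PPP2CA the catalytic subunit of phosphatase PP2A, RPS6KA3 the kinase RSK2 and ODC1 the first enzyme of polyamine synthesis. Pearson r ran from 0.95 for ODC1 to 0.96 for BAG2, Spearman rho from 0.90 for PPP2CA to 0.98 for SRSF3, and r for deviations from diet means from 0.79 for RPS6KA3 to 0.93 for HSPB1. Without the 2 libraries farthest from the median of LMCD1, r ran from 0.86 for PPP2CA to 0.97 for SRSF3. The 6 genes were the highest of many, so no p is given, and the SUC2 libraries, which stand apart in LMCD1, carry part of each r.

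HSPB1 shows the likeness library by library. It was at 1313, 499 and 469.7 CPM in control, 1112, 870.4 and 1389 in SUC1, 1869.9, 1487 and 2662 in SUC2, and 978, 1459 and 1699 in SUC3. As in LMCD1, SUC2 replicate 3 was the highest library, control replicates 2 and 3 the lowest, and control replicate 1 lay among the succinate libraries. Unlike in LMCD1, SUC2 and SUC3 overlapped, with 1487 CPM in SUC2 replicate 2 and 1699 CPM in SUC3 replicate 3.

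RCAN1 had other nearest genes, and none was shared with LMCD1. They were BICC1, TNNI1, ARSB, TCAP, SLC7A2 and PMP22, with Pearson r from 0.86 for PMP22 to 0.92 for BICC1. TNNI1 encodes slow skeletal troponin I and TCAP the Z-disc protein telethonin. TNNI1 was at 354, 105 and 119 CPM in control, 349.6, 182 and 333 in SUC1, 243, 223 and 176 in SUC2, and 244, 284 and 334 in SUC3. Its r with RCAN1 was 0.89 over 12 libraries, 0.93 for deviations from diet means and 0.65 without the 2 libraries farthest from the median of RCAN1, which were control replicates 2 and 3. LMCD1 and RCAN1 themselves had an r of 0.63 over 12 libraries and 0.72 for deviations from diet means, but -0.15 without control replicates 2 and 3, so that relation rests on those libraries.

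**Figure D5:**
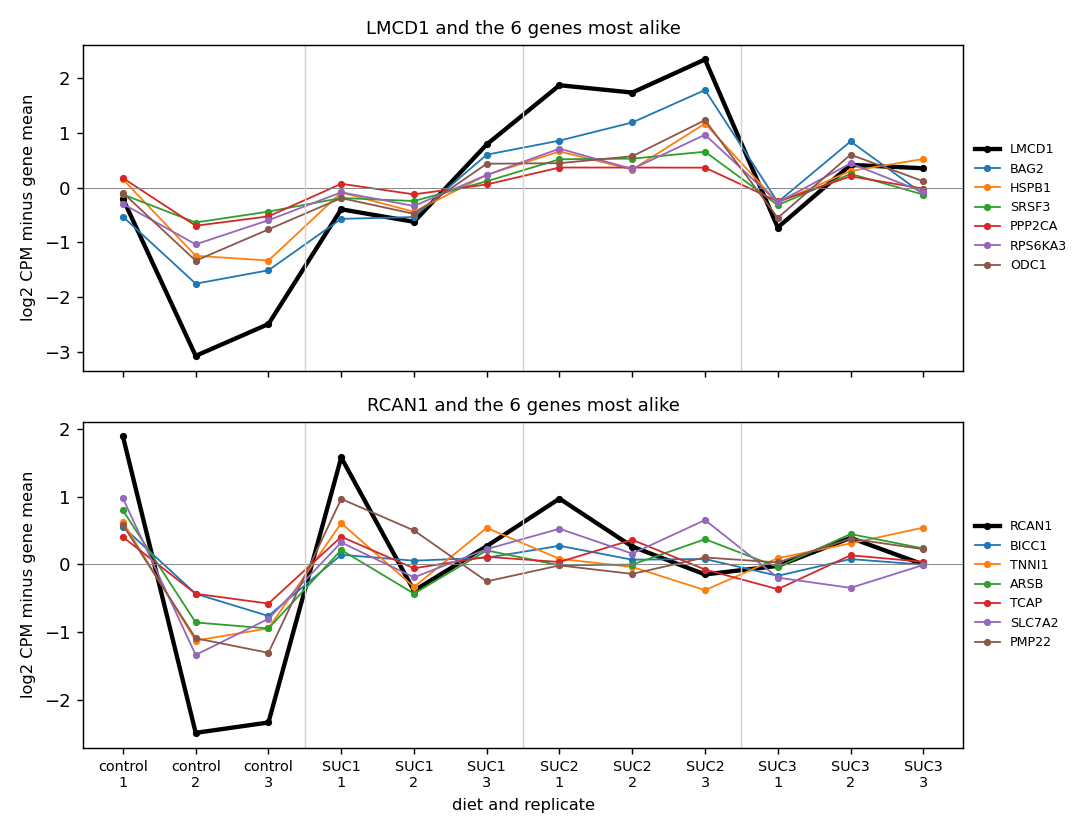
Log2 CPM minus the mean of each gene over the 12 libraries for LMCD1 (top) and RCAN1 (bottom), each in black with the 6 genes most alike in colour, by diet and replicate. Every gene of the LMCD1 group has its highest mean in SUC2. Single SUC3 libraries lie above single SUC2 libraries for HSPB1, RPS6KA3 and ODC1. RCAN1 and 4 of its 6 genes peak in control replicate 1, while PMP22 (153 against 117 CPM) and TCAP (1969 against 1962 CPM) are higher in SUC1 replicate 1.

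Markers of other cell types moved with some of these groups. The 5 leukocyte and macrophage markers summed to between 16.5 and 27.2 CPM in control libraries, 24.8 and 33.4 with SUC1, 38.7 and 51.0 with SUC2, and 21.7 and 23.2 with SUC3, so they were highest in the diet where LMCD1 was highest, and their part in the LMCD1 level was not tested. The 5 fibroblast markers summed to between 353 and 605 CPM in control libraries, 715 and 1374 with SUC1, 690.2 and 817 with SUC2, and 740.4 and 1104 with SUC3. The 4 adipocyte markers ran from 44.3 to 50.6, 104 to 151, 60.8 to 171 and 64.6 to 244 CPM in the same order. For all 3 sets every control library lay below every SUC2 library. Sums of the smooth muscle and pericyte, endothelial and nerve markers overlapped between control and SUC2. All endothelial sums in SUC3 (326 to 669.5 CPM) lay above all control sums (244 to 283 CPM), as did the SUC3 sums of fibroblast and adipocyte markers, in the diet where NFATC4 was highest, and their part in the NFATC4 level was not tested. No marker of the 7 lists was at 0 in any library, and none passed in any succinate diet against control by edgeR.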

How the data were processed

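The labels name RNA from longissimus dorsi and 4 diets. Read counts per gene and FPKM were deposited by the authors. FPKM recomputed from the counts, gene lengths and column totals matched the deposited FPKM (largest relative difference 5.08e-15). No aligner, counting program or strand setting is named by the labels. GRCm38 and mm10, both mouse assemblies, are the builds listed per the submitters' processing notes, while the table's genes are those of sheep. The table names no build, so start and end are printed as deposited, with chromosome names matched by GeneID to the RefSeq gene table of ARS-UI_Ramb_v3.0. MYH7 was found by its description, LEP and CREBBP by GeneID.

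Counts were filtered with filterByExpr and scaled by TMM (factors 0.857 to 1.10). A quasi-likelihood model (edgeR 4.0.16, R 4.3.3) with diet as its only factor was fitted to all 12 libraries (8 residual degrees of freedom). Tests were two-sided, adjusted by Benjamini-Hochberg over 13319 genes, with a threshold of 0.05. Each standard error was derived from the fold change and its F statistic. The depth set a floor of 3 counts at 0.157 to 0.207 CPM, for counting error only. Log2 CPM for correlations used a prior count of 2. Alternatives were DESeq2 1.42.0, RLE factors, no filter, a replicate block and leaving out each library.

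The members and lists were chosen with earlier results of these data known. All 9 members were described, and of each pathway list every gene that passed and up to 2 more with the smallest p against control were named. One gene that this rule names is not reported here. HSPB1, TNNI1, MYH7 and MYH2 were picked for per-library values after these were seen. No pair of libraries within a diet agreed within sampling noise, and no per-sample column was left unused.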

Additional observations from a re-analysis of the deposited data

How the results depend on the processing

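None of the 8 genes other than LMCD1 was called under any of the 16 alternatives, except RCAN1 in SUC2 without control replicate 1. That fit is a description for RCAN1, since it keeps only its lowest libraries as control. DESeq2 called more genes of the whole table, 65, 829 and 236 in SUC1, SUC2 and SUC3 against control, 53 in SUC2 against SUC1, 69 in SUC3 against SUC1 and 231 in SUC3 against SUC2. Of 78 pathway genes with counts it called 9 in SUC2 and 3 in SUC3 against control, against 6.12% and 1.74% of all genes it tested. It called 2 in SUC3 against SUC1 and 1 in SUC3 against SUC2, against 0.583% and 1.7% of all genes. Without the filter on low counts the whole table gave 3 calls in SUC3 against control, 1 in SUC2 against SUC1 and 6 in SUC3 against SUC2. Replicate numbers showed no clear pairing of the libraries: same-number pairs had a median correlation of deviations of 0.04 (-0.19 to 0.20, 18 pairs). Pairs of different number had a median of -0.01 (-0.28 to 0.26, 36 pairs), and 5 of 12 libraries were closest to their own number. With 3 libraries per diet these values cannot decide whether the numbers pair the libraries. With the replicate block the whole table gave 122 calls in SUC2 and 0 in SUC3 against control, 1 in SUC2 against SUC1 and 1 in SUC3 against SUC2, and 1 pathway gene was called in SUC2. RCAN1 was then at 0.91 in SUC2 and 0.87 in SUC3 against control, the opposite sign, and the cause was not tested. Leaving out 1 library at a time, calls in the whole table ranged from 0 to 7 in SUC1, 0 (without control replicate 2) to 332 (without SUC3 replicate 2) in SUC2 and 0 to 11 in SUC3 against control. They ranged from 0 to 1 in SUC2 against SUC1, 0 to 2 in SUC3 against SUC1 and 1 to 66 (without SUC3 replicate 2) in SUC3 against SUC2. Pathway calls ranged from 0 to 4 in SUC2 and 0 to 1 in SUC3 against control, and calls among the 8 genes from 0 to 1 in SUC2. The log2 fold changes whose sign turned when 1 library was left out had these ranges. Against control, RCAN1 in SUC1 ran from -0.47 to 3.14, in SUC2 from -0.53 to 2.85 and in SUC3 from -0.83 to 2.55. PPP3R1 ran from -0.028 to 0.20 in SUC1, NFATC1 from -0.18 to 0.61 in SUC1, NFATC4 from -0.23 to 0.16 in SUC1 and -0.13 to 0.28 in SUC2, PPP3CA from -0.13 to 0.038 in SUC3 and NFATC2 from -0.39 to 0.054 in SUC3. In SUC2 against SUC1, RCAN1 ran from -0.65 to 0.46, NFATC2 from -0.26 to 0.30 and NFATC4 from -0.049 to 0.30. In SUC3 against SUC1, LMCD1 ran from -0.22 to 0.60, RCAN1 from -0.93 to 0.16, NFATC1 from -0.20 to 0.59 and NFATC3 from -0.18 to 0.33. In SUC3 against SUC2, RCAN1 ran from -0.53 to 0.064, PPP3CB from -0.072 to 0.12 and PPP3R1 from -0.12 to 0.27. None of the fold changes given against control for the pathway genes that the naming rule picked turned sign. That rule picked genes with small p-values, so a stable sign was likely from the start. PRICKLE3 in SUC2 lost its call with the replicate block (adjusted p 0.0501) and without control replicate 1, 2 or 3, SUC1 replicate 2 or 3, SUC2 replicate 1 or 3, or SUC3 replicate 3. Some named genes passed only under an alternative: in SUC2, HDAC9 without the filter, with DESeq2 or without SUC3 replicate 2 (adjusted p 0.0453, 0.0029 and 0.0271), DYRK1A with DESeq2 or without SUC2 replicate 2 (0.0247 and 0.0481), ATF3 without SUC3 replicate 2 (0.0380) and NR4A3 with DESeq2 or without SUC3 replicate 3 (0.00571 and 0.0448). In SUC3, NR4A3 passed with DESeq2 or without SUC3 replicate 3 (1.4e-05 and 0.0399), and GATA6 and PRICKLE3 with DESeq2 (0.0286 and 0.0411). SUC3 replicate 3 held the lowest NR4A3 value in SUC3, and SUC2 replicate 2 the lowest DYRK1A value in SUC2. Leaving these libraries out raises the fold change of that gene in that diet, so those 2 calls are descriptions. With 3 libraries per diet, standard errors from 0.17 (PPP3CB) to 0.89 (RCAN1) limit what could pass.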
